A study of Mus musculus with 12 samples.

Results

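The genes of the myosin light chains and their kinases were followed in C2C12 cells, a mouse skeletal myoblast line that fuses into myotubes, during differentiation with and without overexpression of PPARγ. They are 10 of the 27138 genes with a value above 0 in at least 1 library, chosen by name from the deposited table. 5 encode essential light chains (*Myl1*, *Myl3*, *Myl4*, *Myl6* and *Myl6b*), 3 encode regulatory light chains (*Mylpf*, *Myl2* and *Myl9*), and *Mylk2* and *Mylk* encode myosin light chain kinases. RNA was sequenced in 3 libraries of each of 4 groups. WT_0d and WT_5d were wild type C2C12 cells, collected on day 0 and day 5. They are labelled PB-IP after the PiggyBac vector and are taken here to carry it without an insert. PPARγ/+_0d and PPARγ/+_5d were C2C12 cells carrying the same vector with the PPARγ coding sequence, collected on the same days. Both kinds of cells therefore shared the line and, on that reading of the label, the vector. The study's methods describe transfection and selection only for the PPARγ construct. The PPARγ/+ cells were selected with puromycin for positive clones, and the sources used here name neither the number of clones nor the promoter that drove the insert. The labels call the system inducible and the controls uninduced, and they name no inducing agent. The study calls the libraries of a group biological replicates and the sources used here say no more on how they were obtained, so the p-values measure the spread between these libraries.

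Each myosin heavy chain head carries an essential and a regulatory light chain on its lever arm. Striated muscle uses fiber-specific forms of both, while smooth muscle and nonmuscle cells use *Myl6* with *Myl9*, *Myl12a* or *Myl12b*. Calmodulin-dependent kinases phosphorylate the regulatory chain: *Mylk2* encodes the skeletal muscle kinase, and *Mylk* encodes the smooth muscle and nonmuscle kinase. C2C12 cells are known to replace nonmuscle with sarcomeric myosin as they form myotubes.

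Levels are given as FPKM, fragments scaled to exon length and to the mapped fragments of the library, which is a scale per length. Comparisons between genes depend on the lengths used, which had to be inferred for *Myl6*, *Myl6b* and *Mylk*. The libraries held from 15557884 to 22013309 fragments on genes. Differences between groups were tested with limma on log2(FPKM + 0.1) over 18023 genes with at least 0.1 FPKM in at least 3 libraries, and a log2 fold change is always on that scale, which understates the change of low genes. Between days a gene was called changed if it differed at least 2-fold with an unadjusted p not above 0.05, the study's own thresholds. Between the cell types a 2-fold difference and a Benjamini-Hochberg adjusted p not above 0.05 were required. Of the 10 genes, 9 passed the filter and *Myl3* did not.

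Several libraries stood apart from others of their group. *Myog*, the myogenic factor of early differentiation, was at 2.69, 15.7 and 1.47 FPKM in WT_0d replicates 1, 2 and 3, so that replicate 2 had the most muscle RNA on day 0. In WT_5d *Myog* was at 271, 215 and 90.0 FPKM, against 78.8, 85.9 and 90.3 FPKM in PPARγ/+_5d. WT_5d replicate 3 was therefore at the level of the PPARγ/+ cells in this marker. Muscle creatine kinase *Ckm* was at 67.8, 39.2 and 12.04 FPKM in WT_5d and at 3.44, 4.86 and 5.71 FPKM in PPARγ/+_5d. Values without WT_5d replicate 3 are given beside the results it decides. That library was singled out by its low values of muscle genes, so a fit without it is not an independent test of such genes. The RNA was from whole cultures, in which fewer differentiated cells and less RNA per cell cannot be told apart.

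The labels of the cell types were borne out by *Pparg* itself. It stood at 6.53 ± 1.27 FPKM in WT_0d, 3.75 ± 0.76 in WT_5d, 39.6 ± 10.1 in PPARγ/+_0d and 58.9 ± 29.3 in PPARγ/+_5d (SD, n = 3), and the cell types did not overlap. It was higher in PPARγ/+ cells by 2.57 on the log2 scale on 0d (SE 0.24, limma adjusted p = 0.0115) and by 3.85 on 5d (SE 0.34, adjusted p = 0.0379). *Myod1*, the myogenic factor that marks myoblasts, was at 13.8 ± 7.47 FPKM in WT_0d and 7.00 ± 2.41 FPKM in PPARγ/+_0d. These groups overlapped and *Myod1* was not called (log2 difference -0.86, SE 0.46, limma adjusted p = 0.335). On 5d its means were 32.1 FPKM in WT and 20.7 FPKM in PPARγ/+ cells, also overlapping and not called (-0.56, SE 0.27, limma adjusted p = 0.438).

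The results turn mainly on *Mylpf* and *Myl1*, the fast skeletal regulatory and essential chains, which changed together, on *Myl4*, the embryonic and atrial essential chain that changed with them, and on *Myl9*, the smooth muscle and nonmuscle regulatory chain that did not. For these genes the 250 bases before the RefSeq start (GRCm38.p6) are shown, read along the gene 5′ to 3′. Capitals mark an E-box CAGCTG, which MyoD family factors can bind, an MCAT element CATTCC on either strand, known as a TEAD site, or a CArG box, known as an SRF site.

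Mylpf, chr7:127211358-127211607, plus strand: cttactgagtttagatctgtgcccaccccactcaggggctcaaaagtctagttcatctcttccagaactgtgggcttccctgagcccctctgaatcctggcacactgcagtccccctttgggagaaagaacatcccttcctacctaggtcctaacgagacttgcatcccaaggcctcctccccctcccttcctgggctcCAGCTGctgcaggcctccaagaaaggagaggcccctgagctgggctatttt
Myl1, chr1:66945057-66945306, minus strand: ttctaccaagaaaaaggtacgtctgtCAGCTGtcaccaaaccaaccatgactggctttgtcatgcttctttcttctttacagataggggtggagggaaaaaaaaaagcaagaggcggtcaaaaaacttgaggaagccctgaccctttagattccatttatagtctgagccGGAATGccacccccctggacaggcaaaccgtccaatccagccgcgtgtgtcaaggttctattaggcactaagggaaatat
Myl4, chr11:104550413-104550662, plus strand: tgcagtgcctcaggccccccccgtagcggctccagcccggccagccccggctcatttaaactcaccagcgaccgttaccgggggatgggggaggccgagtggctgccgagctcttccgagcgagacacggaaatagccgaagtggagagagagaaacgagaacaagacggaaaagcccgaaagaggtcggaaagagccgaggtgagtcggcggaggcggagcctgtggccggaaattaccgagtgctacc
Myl9, chr2:156775214-156775463, plus strand: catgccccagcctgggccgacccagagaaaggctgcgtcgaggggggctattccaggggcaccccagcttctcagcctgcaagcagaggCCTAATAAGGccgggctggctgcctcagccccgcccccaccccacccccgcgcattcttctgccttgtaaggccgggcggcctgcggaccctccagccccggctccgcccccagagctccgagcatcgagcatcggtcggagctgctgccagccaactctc

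The E-box began 51 bases before the start in *Mylpf* and 224 bases before it in *Myl1*, and the *Myl1* window also held an MCAT element 80 bases before the start. In the *Myl4* window, which lies at the outermost annotated start of the gene, none of the motifs searched was found. Other starts, where a gene has them, were not searched. In *Myl9* a CArG box began 161 bases before the start. The E-box was also found in both windows of *Myl2*, which lie 8227 and 7762 bases from the nearest GENCODE start of that gene and outside the coordinates given for it below, the MCAT element in *Myl3* and *Mylk*, and the CArG box in *Myl3* and *Myl6*. The windows searched ran from 250 bases before to 50 bases after the start, on both strands and with no overlap between the motifs found. A promoter was matched for 9 of the 10 genes (all but *Mylk2*), giving 11 windows. Among all 32851 RefSeq promoters of this length, 16.3% held the E-box, 14.7% the MCAT element and 1.63% a CArG box. A MEF2 box (0.557% of all promoters) and a direct repeat of AGGTCA with 1 base between, the core of a PPAR site (0.0396% of all promoters), were found in none of the 11 windows. These matches describe letters only and were not tested for binding.

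**Figure D1:**
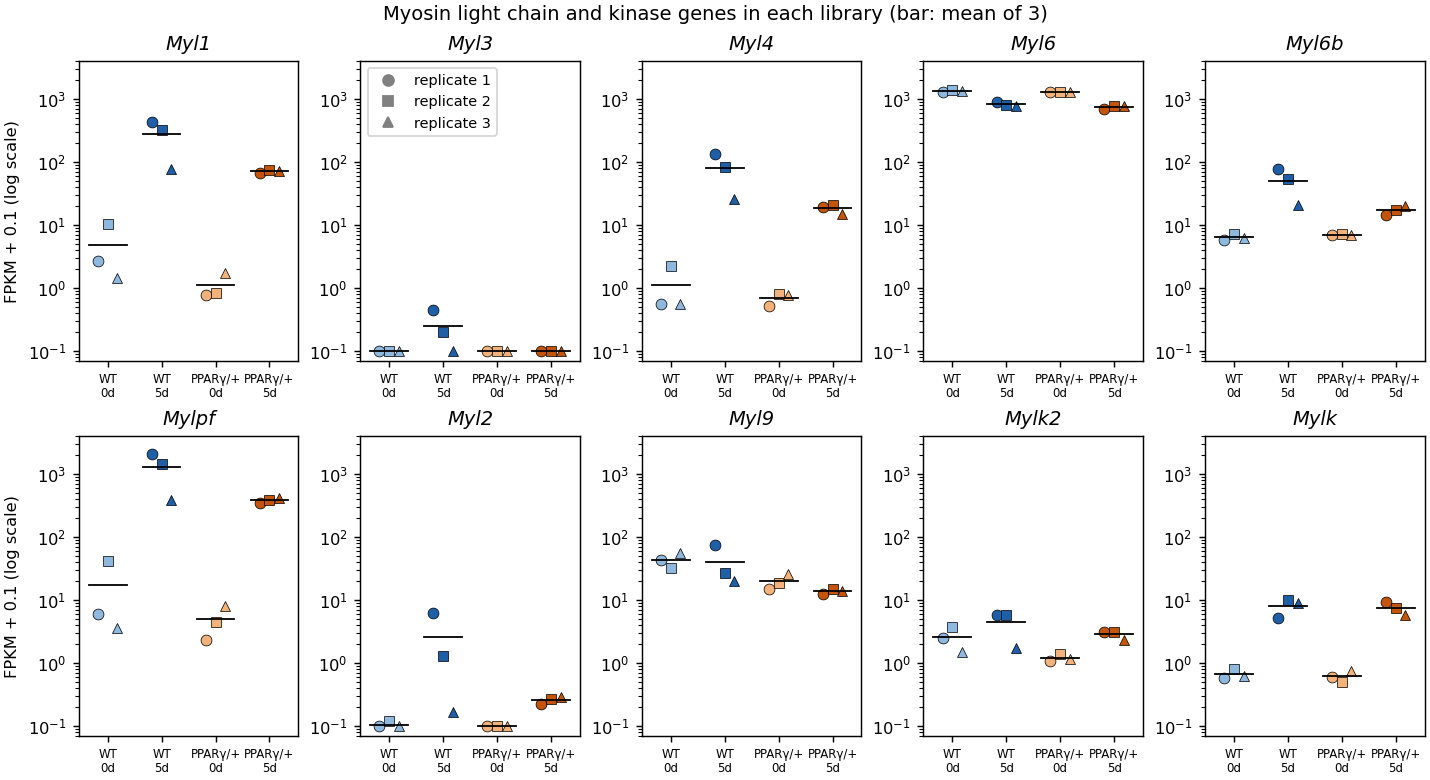
FPKM + 0.1 on a log scale for the 10 genes in the 12 libraries, with symbols for replicates 1 to 3 and a bar at the mean of each group. The sarcomeric genes *Myl1*, *Myl4* and *Mylpf* and the kinase *Mylk* stood higher in every library of 5d than in any of 0d, *Myl6* stood lower, and WT_5d replicate 3 lay closest to the PPARγ/+_5d libraries in *Myl1* and *Mylpf*.

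From 0d to 5d *Myl1*, *Myl4*, *Mylpf* and *Myl2* of the sarcomeric chains rose in both cell types, *Myl2* from a few fragments only, and *Myl3* was not tested. In WT cells 6 of the 9 genes tested were called higher and 0 lower, where 8.94% of all genes tested were called higher and 7.53% lower. In PPARγ/+ cells 7 were called higher and 0 lower, with 9.11% of all genes called higher and 6.06% lower. The libraries of the 2 days did not overlap for 7 of the 10 genes in WT cells and for 8 in PPARγ/+ cells, beside 51.1% and 58.1% of all genes tested. The 9 tested genes had a median log2 fold change of 3.39 in WT cells, where that of all genes was -0.08, and of 1.38 in PPARγ/+ cells, where it was -0.10.

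Positions below are those of the GRCm38 build (GENCODE M21). Among the essential chains, *Myl1* (ENSMUSG00000061816, chromosome 1, 66924295 to 66945404, minus strand) was at 2.56, 10.4 and 1.33 FPKM in WT_0d and at 439, 320.5 and 78.7 FPKM in WT_5d. In PPARγ/+ cells it was at 0.672, 0.740 and 1.66 FPKM on 0d and at 67.1, 74.0 and 71.9 FPKM on 5d. The days did not overlap in either cell type, WT_0d replicate 2 was the highest library of 0d, and WT_5d replicate 3 was the lowest WT library of 5d. *Myl1* rose by 6.03 on the log2 scale in WT cells (SE 0.90, limma adjusted p = 0.00352) and by 6.09 in PPARγ/+ cells (SE 0.30, adjusted p = 2.96e-05). The WT rise was 6.84 without WT_0d replicate 2, 5.40 without WT_0d replicate 3 and 6.78 without WT_5d replicate 3, so its closeness to the PPARγ/+ value depends on single libraries. The gene makes 2 well known proteins, the long and short alkali chains, and a gene-level FPKM cannot tell them apart.

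*Myl4* (ENSMUSG00000061086, chromosome 11, 104550663 to 104595753, plus strand), which embryonic skeletal muscle and the atria use, followed *Myl1* at a lower FPKM. It was at 0.467, 2.16 and 0.466 FPKM in WT_0d and at 136, 82.3 and 25.9 FPKM in WT_5d. The PPARγ/+ libraries had 0.424, 0.703 and 0.691 FPKM on 0d and 19.3, 20.7 and 15.0 FPKM on 5d. Again the days were fully separate, and all PPARγ/+ libraries of 5d lay below all WT libraries of that day. The rise was 6.21 in WT cells (SE 0.77, adjusted p = 0.00179) and 4.72 in PPARγ/+ cells (SE 0.20, adjusted p = 2.10e-05) on the log2 scale. In WT cells it was 6.87 without WT_0d replicate 2 and 6.88 without WT_5d replicate 3. The order of *Myl4* and *Myl1* depends on their lengths, 4637 and 2074 bases. In fragments *Myl4* exceeded *Myl1* in PPARγ/+_0d replicates 1 (48 against 34) and 2 (85 against 40) and was lower in all other libraries.

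*Myl3* (ENSMUSG00000059741, chromosome 9, 110741861 to 110769798, plus strand), the slow skeletal and ventricular essential chain, was almost silent. Only WT_5d replicates 1 and 2 had fragments, 18 and 4, and the other 10 libraries had 0, where a count of 0 allows up to 3 fragments (counting error only). The gene was below the filter and was not tested. It shares 95 exonic bases with *Pth1r* on the opposite strand, which had 6 to 26 fragments per library in all groups, and since the strand setting of the counting is not given in the sources used here, the shared stretch cannot be told apart.

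*Myl6* (ENSMUSG00000090841, chromosome 10, 128490860 to 128494145, minus strand), the essential chain of smooth muscle and nonmuscle myosin, was the most abundant essential chain per length in every library. The deposited FPKM of *Myl6* correspond to a length of 665 bases, inferred here, against 3187 annotated exonic bases, and those of *Myl1* to its annotated 2074, so the order of levels depends on these lengths. In fragments *Myl1* exceeded *Myl6* in WT_5d replicates 1 (23177 against 15014) and 2 (12826 against 10473). *Myl6* was at 1312, 1383 and 1343 FPKM in WT_0d and at 886, 816 and 779.98 FPKM in WT_5d. In PPARγ/+ cells it was at 1297, 1285 and 1286 FPKM on 0d and at 699, 765 and 789.9 FPKM on 5d. The libraries of 5d were lower than all those of 0d, and the cell types were close to each other on both days. The log2 difference between days was -0.70 in WT cells (SE 0.14, adjusted p = 0.00989) and -0.78 in PPARγ/+ cells (SE 0.09, adjusted p = 6.49e-04), less than the 2-fold change required for a call.

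*Myl6b* (ENSMUSG00000039824, chromosome 10, 128494157 to 128498685, minus strand) encodes a further essential chain of nonmuscle and slow muscle myosin and lies beside *Myl6*. It was at 5.73, 7.26 and 6.27 FPKM in WT_0d and at 77.2, 52.9 and 20.6 FPKM in WT_5d. The PPARγ/+ libraries had 6.99, 7.10 and 6.87 FPKM on 0d and 14.4, 17.4 and 19.8 FPKM on 5d. The neighbours thus differed in direction: while *Myl6* was lower on 5d, *Myl6b* was higher in every library. It rose by 2.76 on the log2 scale in WT cells (SE 0.46, adjusted p = 0.00509) and by 1.27 in PPARγ/+ cells (SE 0.11, adjusted p = 2.24e-04).

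Among the regulatory chains, *Mylpf* (ENSMUSG00000030672, chromosome 7, 127208890 to 127214298, plus strand) reached the highest level of all 10 genes, above *Myl6* in WT_5d replicates 1 and 2. It was at 5.92, 42.0 and 3.58 FPKM in WT_0d and at 2094, 1426 and 394 FPKM in WT_5d. In PPARγ/+ cells it was at 2.28, 4.44 and 7.89 FPKM on 0d and at 351, 389 and 419.7 FPKM on 5d. WT_5d replicate 3 lay inside the range of PPARγ/+_5d, and the other WT libraries of 5d lay far above it. The rise was 6.76 on the log2 scale in WT cells (SE 1.03, adjusted p = 0.00371) and 6.45 in PPARγ/+ cells (SE 0.40, adjusted p = 6.14e-05). In WT cells it was 7.81 without WT_0d replicate 2, 6.05 without WT_0d replicate 3 and 7.47 without WT_5d replicate 3.

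*Myl2* (ENSMUSG00000013936, chromosome 5, 122100951 to 122113472, plus strand), the slow skeletal and ventricular regulatory chain, had few or no fragments in most libraries. It had 0, 1 and 0 fragments in WT_0d, 305, 46 and 3 in WT_5d, 0 in each library of PPARγ/+_0d, and 5, 7 and 7 in PPARγ/+_5d. The WT_5d libraries spread widely, and WT_5d replicate 3 held the fewest fragments of 5d. Set against the floor of 3 fragments per library, mean FPKM on 5d was at least 35.9-fold higher in WT cells and at least 2.51-fold higher in PPARγ/+ cells. WT_5d replicate 1 carried the first of these bounds, which was 9.36-fold without it. The gene was called in WT cells (unadjusted p = 0.0292, limma adjusted p = 0.0705) and in PPARγ/+ cells (adjusted p = 0.00258), and the WT call was lost in 5 of the 6 fits that left out a library. The WT log2 difference was 3.39, which became 2.15 without WT_5d replicate 1 and 4.76, still called, without WT_5d replicate 3. The PPARγ/+ call was lost when all 12 libraries were fitted together (log2 difference 1.38, adjusted p = 0.262). *Myl2* shares 60 exonic bases with *Ccdc63* on the opposite strand, which had at most 3 fragments in any library.

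*Myl9* (ENSMUSG00000067818, chromosome 2, 156775420 to 156781658, plus strand), the regulatory chain of smooth muscle and nonmuscle myosin, did not pass the test between days. It was at 43.2, 32.0 and 55.0 FPKM in WT_0d and at 75.8, 26.6 and 19.8 FPKM in WT_5d, where replicate 1 stood far above the others. The PPARγ/+ libraries had 14.8, 18.4 and 26.4 FPKM on 0d and 12.3, 15.2 and 14.0 FPKM on 5d. The days overlapped in both cell types, whereas every PPARγ/+ library lay below every WT library of the same day. The log2 difference of 5d from 0d was -0.31 in WT cells (95% interval -1.52 to 0.90, adjusted p = 0.665) and -0.48 in PPARγ/+ cells (95% interval -0.97 to 0.01, adjusted p = 0.0975).

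Of the kinases, *Mylk* (ENSMUSG00000022836, chromosome 16, 34745210 to 35002420, plus strand) rose in both cell types. It was at 0.482, 0.710 and 0.527 FPKM in WT_0d and at 5.19, 9.97 and 8.88 FPKM in WT_5d, and at 0.512, 0.408 and 0.654 FPKM in PPARγ/+_0d and 9.45, 7.37 and 5.71 FPKM in PPARγ/+_5d. The days were separate, and the cell types overlapped on both days. *Mylk* rose by 3.55 on the log2 scale in WT cells (SE 0.28, adjusted p = 3.85e-04) and by 3.60 in PPARγ/+ cells (SE 0.22, adjusted p = 6.19e-05). The difference between these changes was 0.04, with a 95% interval from -0.78 to 0.86. The locus makes long and short kinases and the kinase-free telokin, which a gene-level FPKM cannot separate, and it shares 548 and 224 exonic bases with the antisense genes *E130310I04Rik* and *Gm21691*.

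*Mylk2* (ENSMUSG00000027470, chromosome 2, 152911352 to 152923068, plus strand), the skeletal muscle kinase, was at 2.45, 3.61 and 1.41 FPKM in WT_0d and at 5.68, 5.74 and 1.65 FPKM in WT_5d. In PPARγ/+ cells it was at 0.986, 1.31 and 1.06 FPKM on 0d and at 3.01, 3.09 and 2.22 FPKM on 5d. The days overlapped in WT cells through WT_5d replicate 3 and were separate in PPARγ/+ cells. It rose by 1.23 on the log2 scale in PPARγ/+ cells (SE 0.17, adjusted p = 0.00134). In WT cells the log2 difference was 0.69 (SE 0.55, adjusted p = 0.378), and without WT_5d replicate 3 it was 1.26 and was called (unadjusted p = 0.0210).

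**Figure D2:**
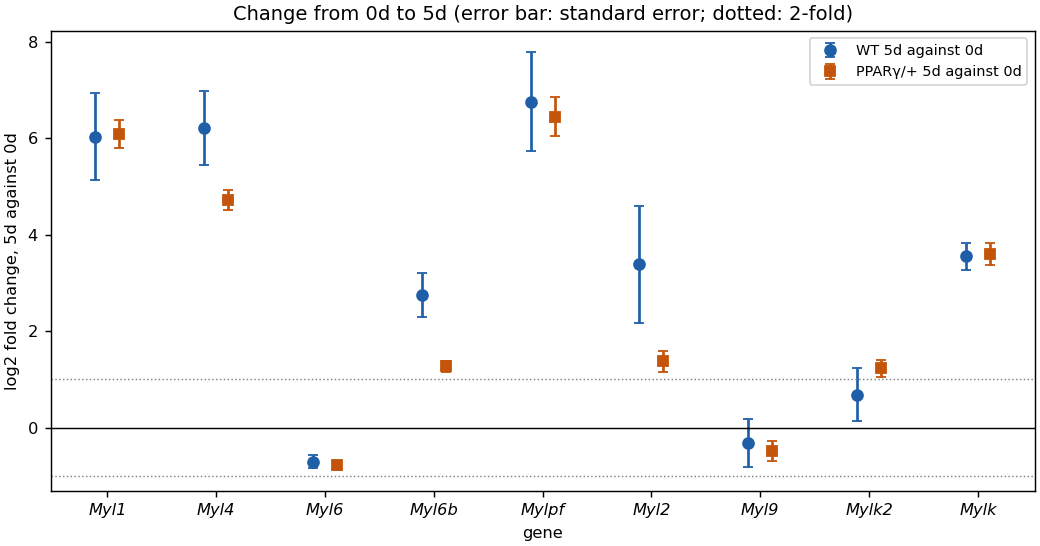
log2 fold change of 5d against 0d for the 9 genes tested, with the standard error of the fit, in WT cells (blue circles) and PPARγ/+ cells (orange squares). *Myl1* and *Mylk* lie at the same height in both cell types (6.03 and 6.09, 3.55 and 3.60, the first resting on single WT libraries), *Myl4*, *Myl6b* and *Myl2* lie lower in PPARγ/+ cells, and *Myl6* and *Myl9* lie below 0 in both.

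An interaction term fitted to all 12 libraries asked whether the change with time depended on the cell type. None of the 9 genes passed at an adjusted p of at most 0.05, where 0.76% of all genes tested passed. Only *Myl6b* was below 0.05 before adjustment, with a rise that was smaller in PPARγ/+ cells (interaction -1.48, SE 0.51, limma adjusted p = 0.256). For *Myl4* the interaction was -1.49 (SE 0.86, adjusted p = 0.551), and leaving out a library moved it between -2.16 and -0.97. For *Myl1* the interaction was 0.06 with a 95% interval from -2.19 to 2.31, wide enough to hold a difference of more than 2-fold either way. Without WT_5d replicate 3, the library singled out by its low muscle values, *Myl6b* (-2.03, adjusted p = 0.00249) and *Myl2* (-3.38, adjusted p = 0.0298) passed, with 2.92% of all genes. Leaving out any other library gave 0 of the 9 genes.

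On 0d, before differentiation, none of the 9 genes was called between the cell types, where 1.59% of all genes tested were. *Myl9* and *Mylk2* met the unadjusted threshold with a 2-fold change. *Myl9* was at 19.8 ± 5.94 FPKM in PPARγ/+_0d and 43.4 ± 11.5 FPKM in WT_0d (SD, n = 3), 2.19-fold lower (log2 difference -1.13, SE 0.27, limma adjusted p = 0.0829). *Mylk2* was 2.23-fold lower (log2 difference -1.0, SE 0.34, adjusted p = 0.165). The groups did not overlap for these and for *Myl6*, whose means differed by 1.04-fold, making 3 of 10 genes, close to the 26.8% of all genes. *Myl9* was called with a stricter filter of 1 FPKM (adjusted p = 0.0390) and with voom on the recovered fragments (adjusted p = 0.0192).

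On 5d the tested sarcomeric light chains and *Myl6b* were lower in PPARγ/+ cells on average, and WT_5d replicate 3 decided whether they passed the test. *Myl4* was at 18.3 ± 2.98 FPKM against 81.4 ± 55.0 FPKM, 4.44-fold lower, *Myl1* was 3.93-fold lower, *Mylpf* 3.37-fold lower and *Myl6b* 2.92-fold lower in mean FPKM. The mean of *Myl2* was 15.4-fold lower (0.161 against 2.48 FPKM), with overlapping groups. Leaving out a library moved the log2 difference of *Myl2* between -3.47 and -0.86. With all libraries none of the 9 genes was called, where 0.155% of all genes tested were, and 4 (*Myl4*, *Myl6b*, *Myl9* and *Myl1*) met the unadjusted threshold with a 2-fold change. Their log2 differences were -1.86 (SE 0.59, limma adjusted p = 0.303), -1.36 (SE 0.48, adjusted p = 0.340), -1.30 (SE 0.49, adjusted p = 0.367) and -1.65 (SE 0.63, adjusted p = 0.373). For *Mylpf* the log2 difference was -1.45 (SE 0.61, adjusted p = 0.406). The same 4 genes were those whose groups did not overlap, 4 of 10 beside 18.5% of all genes.

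WT_5d replicate 3 was singled out by its low values of muscle genes, so leaving it out widens such differences by choice. Leaving out any other library of 5d called 0 of the 9 genes. Without WT_5d replicate 3, 6 of the 9 genes were called lower in PPARγ/+_5d cells, with 4.01% of all genes called in either direction and 2.82% called lower. They were *Myl1* (log2 difference -2.40, adjusted p = 0.00604), *Mylpf* (-2.16, adjusted p = 0.00981), *Myl4* (-2.54, adjusted p = 0.0123), *Myl6b* (-1.90, adjusted p = 0.0148), *Mylk2* (-1.03, adjusted p = 0.0292) and *Myl2* (-3.47, adjusted p = 0.0451). Down-weighting libraries by limma's array weights called 4 of them, *Myl1*, *Mylpf*, *Myl4* and *Myl6b*, with 2.79% of all genes, but the estimation of these weights stopped before it converged. *Mylk* overlapped between the cell types, with a log2 difference of -0.07 and a 95% interval from -0.79 to 0.65 with all libraries, and *Myl6* differed by -0.14 with an interval from -0.46 to 0.18.

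**Figure D3:**
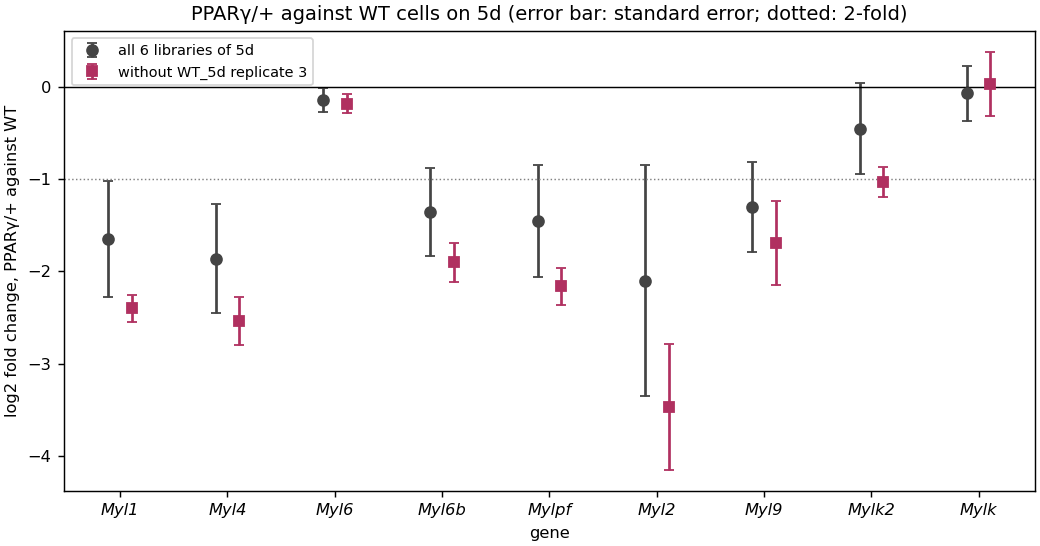
log2 fold change of PPARγ/+ against WT cells on 5d with the standard error of the fit, for all 6 libraries (grey circles) and without WT_5d replicate 3 (red squares). Without that library, which was singled out by its low muscle values, the differences of *Myl1*, *Myl4*, *Myl6b*, *Mylpf*, *Myl2* and *Mylk2* are larger with smaller errors. *Myl6* and *Mylk* remain near 0.

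Because FPKM is per length, the genes of each kind were summed to see which chains made up the pool. On 0d *Myl6* held 99.1% ± 0.45 of the essential chain FPKM in WT cells and 99.3% ± 0.05 in PPARγ/+ cells (SD, n = 3). On 5d the sarcomeric *Myl1*, *Myl3* and *Myl4* together held 26.9% ± 13.6 in WT cells (11.6% to 37.4%) and 10.4% ± 0.64 in PPARγ/+ cells (9.69% to 10.8%). The ranges did not overlap, and the exact permutation test gave p = 0.1, the smallest that 3 against 3 libraries allow (two-sided, 0.178 after adjustment over 64 share comparisons).

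Among the regulatory chains *Myl12a* and *Myl12b*, the nonmuscle forms, took the largest shares on 0d. *Myl12a* held 54.7% ± 0.67 in WT_0d and 59.1% ± 1.92 in PPARγ/+_0d, and *Myl9* held 12.3% ± 3.72 and 6.73% ± 1.88. These close paralogs share sequence, so the split between *Myl12a* and *Myl12b* is uncertain. On 5d *Mylpf* with *Myl2* held 73.8% ± 14.1 in WT cells (57.5% to 83.1%) and 56.8% ± 0.59 in PPARγ/+ cells (56.2% to 57.4%), where exact permutation again gave its minimum of p = 0.1. The lowest WT library and the highest PPARγ/+ library were almost equal. Per length *Myl6* still held 69.3% ± 15.0 of the essential FPKM in WT_5d and 87.6% ± 0.46 in PPARγ/+_5d. Counted in fragments, the sarcomeric shares of the essential and regulatory pools were close to each other, at 55.9% and 55.4% in WT_5d and 31.0% and 34.9% in PPARγ/+_5d, so a comparison of the pools depends on the scale.

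The balance between the kinases moved the other way. *Mylk2* held 79.9% ± 6.26 of the summed FPKM of *Mylk* and *Mylk2* in WT_0d and 34.8% ± 18.3 in WT_5d, and it held 68.0% ± 7.51 in PPARγ/+_0d and 27.2% ± 2.78 in PPARγ/+_5d. The days did not overlap in either cell type (exact permutation p = 0.1, the smallest possible). *Mylk*, the kinase of the smooth muscle and nonmuscle type, was therefore the more abundant of the pair per length in 5 of the 6 libraries of 5d.

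**Figure D4:**
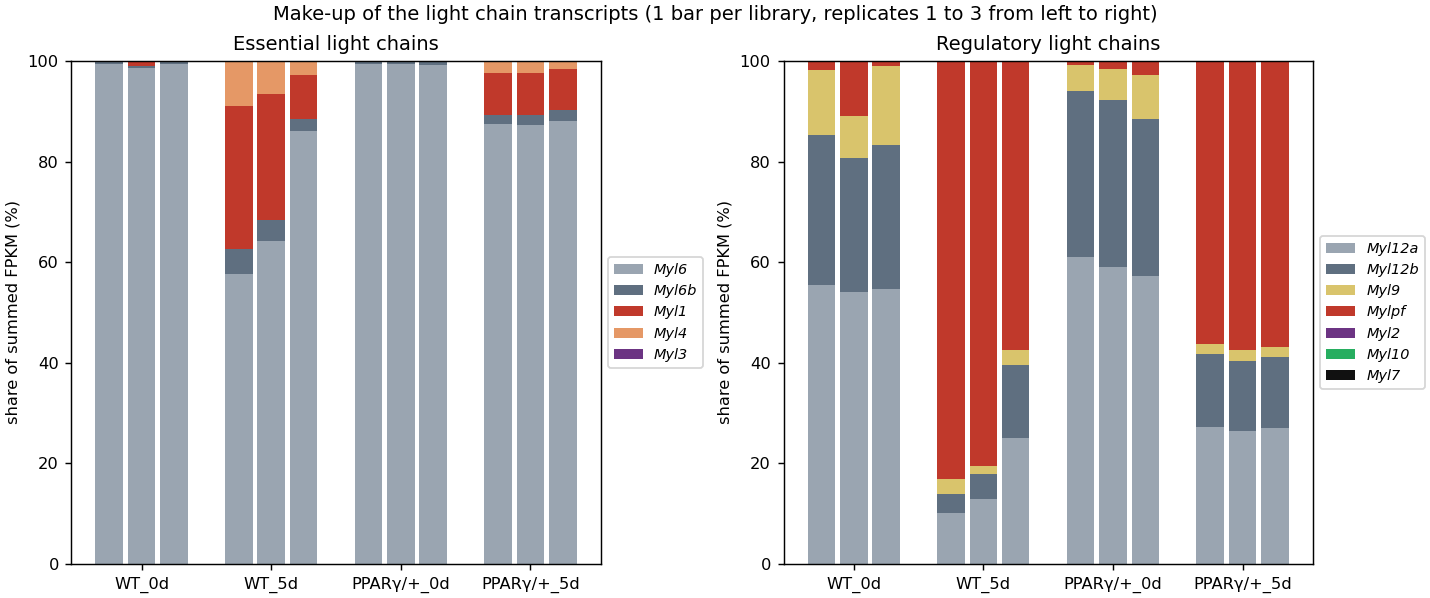
Share of each gene in the summed FPKM of the essential (left) and regulatory (right) light chains, with 1 bar for each library. *Myl6* fills nearly all of the essential pool on 0d and most of it on 5d, while *Mylpf* makes up at least 56.2% of the regulatory pool in every library of 5d.

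The proportions of the sarcomeric chains to each other varied less than their levels among the WT libraries of 5d. On that day *Myl1* per *Mylpf* was 0.209, 0.225 and 0.200 in WT_5d and 0.191, 0.190 and 0.171 in PPARγ/+_5d, without overlap and with a difference of 0.0272 between the means (exact permutation p = 0.1, the smallest possible, 0.16 after adjustment over 8 ratio comparisons). *Myl4* per *Myl1* was 0.310, 0.257 and 0.329 against 0.288, 0.280 and 0.208, and the cell types overlapped (exact permutation p = 0.4). On 0d, at low levels, the ratios ranged more widely. *Myl1* per *Mylpf* ran from 0.167 to 0.432, and the cell types overlapped (exact permutation p = 0.2). *Myl4* per *Myl1* was 0.182, 0.208 and 0.349 in WT_0d and 0.631, 0.950 and 0.417 in PPARγ/+_0d, without overlap and 2.70-fold higher in the mean of PPARγ/+ cells (exact permutation p = 0.1, the smallest possible, 0.16 after adjustment).

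*Mylpf* relative to the heavy chains was higher in every PPARγ/+ library than in any WT library of the same day, on 0d as on 5d. Per summed FPKM of 9 sarcomeric heavy chain genes, *Mylpf* was 2.98, 3.31 and 3.24 in WT_5d and 6.09, 5.91 and 6.24 in PPARγ/+_5d. The libraries of each cell type lay close together, WT_5d replicate 3 included, and the mean ratio was 1.91-fold higher in PPARγ/+ cells (exact permutation p = 0.1, the smallest possible, 0.16 after adjustment). On 0d the ratio was 5.79, 4.42 and 5.18 in WT cells and 7.71, 12.5 and 8.98 in PPARγ/+ cells, a 1.89-fold difference of the means with the same p-values, at heavy chain sums that were mostly near 1 FPKM or lower. WT_5d replicate 3 had a heavy chain sum of 121.7 FPKM, against 57.6, 65.9 and 67.2 FPKM in PPARγ/+_5d, although its *Mylpf* level was the same. These ratios were chosen after the values had been seen.

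**Figure D5:**
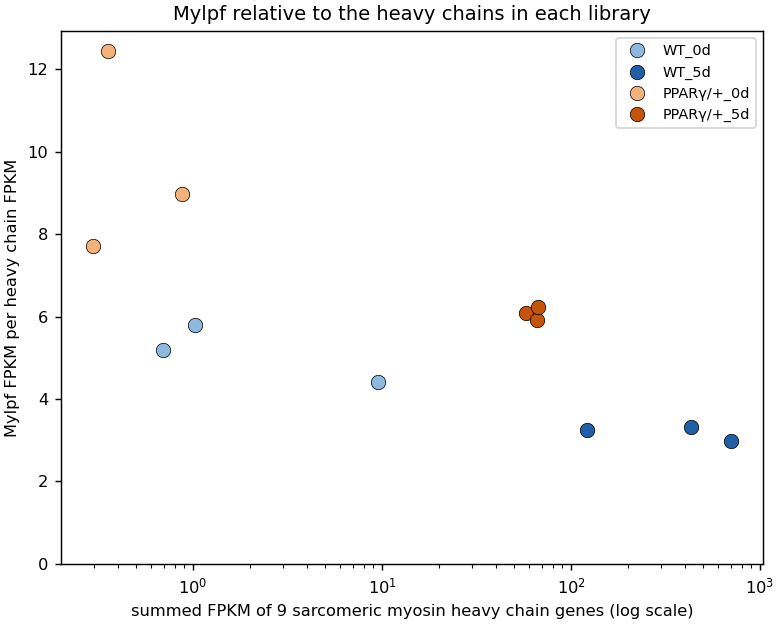
FPKM of *Mylpf* divided by the summed FPKM of 9 sarcomeric heavy chain genes, plotted against that sum on a log scale, with 1 point for each library. The PPARγ/+_5d libraries lie between 5.91 and 6.24 and the WT_5d libraries between 2.98 and 3.31, while 5 of the 6 sums on 0d are at most 1.02 FPKM and the ratios there run from 4.42 to 12.5, also higher in the PPARγ/+ libraries.

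The partners of these genes were counted in lists. All 9 sarcomeric heavy chain genes were called higher on 5d in WT cells (median log2 fold change 4.03) and 8 in PPARγ/+ cells (median 1.97), where 8.94% and 9.11% of all genes were called higher. The largest changes in WT cells were those of *Myh4* (7.65, fast IIb heavy chain), *Myh3* (7.34, embryonic) and *Myh1* (6.86, fast IIx), and in PPARγ/+ cells those of *Myh3* (7.12), *Myh1* (5.79) and *Myh4* (3.91). Between the cell types on 5d none was called, where 0.155% of all genes were, the median log2 difference of the 9 was -2.10, and *Myh4* stood at 1.54 ± 0.73 FPKM in PPARγ/+ cells and 38.9 ± 30.1 FPKM in WT cells (-4.30, SE 0.70, unadjusted p = 8.69e-04, limma adjusted p = 0.104).

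Troponins, the calcium switch of the thin filament, followed the sarcomeric light chains. Of 8 listed 7 were tested and 6 were called higher on 5d in each cell type, with medians of 5.62 in WT and 5.56 in PPARγ/+ cells, against 8.94% and 9.11% of all genes called higher. On 0d *Tnnt2*, a troponin T of heart and embryonic muscle, was called lower in PPARγ/+ cells (-2.03, SE 0.31, limma adjusted p = 0.0306), where 1.59% of all genes were called in either direction. On 5d none was called (median -1.61), where 0.155% of all genes were.

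Other enzymes that act on light chains changed in both directions. Of 10 other kinases, 3 were called higher and 1 lower on 5d in each cell type, where 8.94% and 7.53% of all genes were called higher and lower in WT cells and 9.11% and 6.06% in PPARγ/+ cells. *Mylk4* (2.99 and 1.78 on the log2 scale in WT and PPARγ/+ cells), *Dapk2* (2.61 and 2.82) and *Mylk3*, the cardiac light chain kinase (1.87 and 2.01), rose, and the citron kinase *Cit*, which acts in cytokinesis, fell by 1.90 in WT and by 2.06 in PPARγ/+ cells. The medians of the list were -0.16 and -0.15. Of 9 genes of myosin phosphatase and its inhibitors, *Ppp1r14c*, which encodes an inhibitor, was called higher in WT cells (1.42) and 0 were called in PPARγ/+ cells, with medians of -0.15 and -0.16. None of the 3 calmodulins (medians -0.58 and -0.37), the 3 tested of 4 other light chains (0.15 and 0.07) or the 2 tested of 4 smooth and nonmuscle heavy chains (-0.66 and -0.35) was called between days. Between the cell types no gene of these last 5 lists was called on either day, where 1.59% of all genes were called on 0d and 0.155% on 5d.

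Markers of other cell types moved with the groups to different extents. The 6 adipocyte markers summed to at most 0.0794 FPKM in any WT library, to 5.04, 2.90 and 4.18 FPKM in PPARγ/+_0d and to 13.3, 20.0 and 67.2 FPKM in PPARγ/+_5d, with *Adipoq* the most abundant in PPARγ/+_5d and *Lep* at 0. Their part in the light chain results was not tested. Of the heart markers *Myl7* was at 0 FPKM in all groups but PPARγ/+_0d (mean 0.0232 FPKM), and the 6 summed to at most 3.21 FPKM. Of the 6 smooth muscle markers, which summed to between 497 and 1372 FPKM in WT and between 494 and 1000.2 FPKM in PPARγ/+ cells, *Acta2* was by far the most abundant and *Myh11*, the defining heavy chain, was at no more than 0.0613 FPKM in the mean of any group. The muscle list summed to 166, 233 and 129 FPKM in WT_0d and to 57.1, 61.7 and 81.5 FPKM in PPARγ/+_0d, without overlap. *Des* alone was at 138, 180 and 108 FPKM in WT_0d and at 45.5, 49.2 and 62.9 FPKM in PPARγ/+_0d. The sums on 0d are therefore largely those of *Des*. *Myf5*, *Mef2c* and *Ckm* of the list were also lower in PPARγ/+_0d without overlap. *Myod1*, *Myog* and *Myf6* overlapped, and *Pax7* was higher in every PPARγ/+_0d library than in any WT_0d library. The part of the muscle list in the differences of *Myl9* and *Mylk2* on 0d was not tested. On 5d the muscle list summed to 943, 781 and 262 FPKM in WT cells and to 308, 346 and 365 FPKM in PPARγ/+ cells. The 4 proliferation markers summed to between 127 and 197 FPKM on 0d and to between 15.1 and 22.4 FPKM on 5d.

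Genes with the most similar pattern were listed by Pearson correlation of log2(FPKM + 0.1) over the 12 libraries, as a description only, since the points share the strong difference between days. *Mylpf* was closest to *Tnni1* and *Mybph* (r = 0.999 and 0.998), *Myl1* to *Myh3* and *Tnni2* (0.998 and 0.998), *Myl4* to *Cacna1s* and *Smpx* (0.998 and 0.997), and *Myl6b* to *Tpm2* and *Obsl1* (0.992 and 0.987). *Tnni1*, *Tnni2*, *Tpm2*, *Mybph* and *Myh3* encode filament proteins of muscle, and *Cacna1s* encodes its calcium channel. *Myl6* was closest to *Ncaph* and *Spdl1* (0.995 and 0.994), genes of mitosis. *Mylk* was closest to *Ptgfrn* and *Cyp2f2* (0.992 and 0.989), and *Mylk2* to *Pdlim4* and *Lrrn1* (0.958 and 0.950). *Myl9* had weaker neighbours in *Vezt* and *Vcan* (0.938 and 0.919). The closest genes of the sparse *Myl2* (*Pea15a* and *Ndrg4*, 0.979 and 0.973) rest on few fragments.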

How the data were processed

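The deposited values were FPKM for 46983 Ensembl genes in 12 libraries, from paired-end Illumina sequencing of TruSeq RNA libraries. The authors trimmed the reads, aligned them with STAR, counted them on known genes with HTSeq and computed the FPKM. Their methods name GRCm38 (Ensembl release 83), while the submitters' processing notes name mm9. A second deposited table, on the log2 scale, was not used. With the exonic lengths of GENCODE M21 and the mapped pairs of the study's mapping table, the FPKM gave whole fragments (within 0.01) for 21224 of 27138 genes with a value above 0. For 5913 more a length was inferred, *Myl6*, *Myl6b* and *Mylk* among them, which bears on fragments, voom, and levels and shares compared between genes.

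Each comparison was fitted with limma 3.58.1 (R 4.3.3, empirical Bayes with a trend) on log2(FPKM + 0.1) of its 6 libraries, and the interaction on all 12. P-values were adjusted by Benjamini-Hochberg over all 18023 genes. The study's count test was not repeated, and voom on the recovered fragments was run as an alternative. Shares and ratios were compared by exact two-sided permutation of libraries. The code was tested on simulated data. The floor of 3 fragments covers counting error only.

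The members, gene lists and tests were chosen with earlier results of these data known. Named genes were the 10 members, *Pparg*, *Myod1* and *Myog*, called genes of each list (at most the 3 with the largest change), and for each member the 2 non-members of at least 1 FPKM with the highest correlation (those of *Myl3* are not reported here). *Myh4* on 5d, *Ckm* and markers beyond this rule were named after their values were seen. Alternatives changed the pseudocount, filter, scaling, weights, test, threshold, block and libraries.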

Additional observations from a re-analysis of the deposited data

How the results depend on the processing

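Of 760 refits of a single gene's change in a comparison, 702 kept the direction and the side of the threshold, 18 gained a call, 11 lost one and 29 changed sign. The count of called light chain and kinase genes ranged from 5 to 7 of 9 in WT cells and was 7 in PPARγ/+ cells over fits leaving out each library. Called genes in all ranged from 2765 to 3057 and from 2535 to 2829 there, and fell to 1441 and 1241 with a pseudocount of 1 (1806 in PPARγ/+ cells with a filter at 1 FPKM). With that pseudocount *Myl2* lost its call in both cell types and *Mylk2* in PPARγ/+ cells, and *Myl2* in WT cells also lost it with adjusted p, without the filter and with voom, and in PPARγ/+ cells with all 12 libraries in a single fit.

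Between the cell types on 0d, leaving out a library gave 0 members and 55 to 137 genes in all, against 287. An unadjusted p gave 2 and 661, voom 1 and 485, a filter at 1 FPKM 1 member, a pseudocount of 1 gave 115 genes and no filter 107. On 5d, leaving out a library gave 0 to 6 members and 1 to 723 genes, against 28, the highest without WT_5d replicate 3. An unadjusted p gave 4 and 606, array weights 4 and 502, a pseudocount of 1 gave 8 genes, one of 0.01 gave 71, and all 12 libraries in a single fit 199. In the interaction, leaving out a library gave 0 to 2 members and 42 to 527 genes, against 137, an unadjusted p 1 and 2164, and array weights 2 and 2070. The estimation of the array weights did not converge in 3 of the 5 comparisons (5d, the interaction and the days in WT cells), so those values are uncertain.

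Same-numbered libraries did not deviate together: none of 18 pairs correlated over 0.1 (-0.07 to 0.08). The replicate block therefore pairs only numbers. It called 0 genes on 0d, 0 on 5d and 61 in the interaction, and 3029 and 2766 between days, and the calls of the light chain and kinase genes were those without the block.

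Signs changed in 9 log2 differences, which lay between -0.37 and 0.55 and were not called under any setting that turned them. Leaving out a library moved *Myl9* between days in WT cells from -0.88 to 0.083, *Myl4* between the cell types on 0d from -0.71 to 0.29, and *Mylk* from -0.26 to 0.029 on 0d and from -0.35 to 0.11 on 5d. In the interaction it moved *Myl1* from -0.75 to 0.69, *Mylpf* from -1.36 to 0.40, *Myl9* from -0.56 to 0.41, *Mylk2* from -0.029 to 0.89 and *Mylk* from -0.24 to 0.23. There a pseudocount of 1 gave *Myl1* -0.44 and *Mylk* -0.019, and array weights gave *Myl1* -0.62, *Mylk* -0.32, *Mylk2* -0.028 and *Myl9* 0.080. The cause of these changes was not tested.

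Summed as fragments, which weights genes by length, *Myl1*, *Myl3* and *Myl4* held 1.56%, 55.9%, 0.568% and 31.0% of the essential pool in WT_0d, WT_5d, PPARγ/+_0d and PPARγ/+_5d. *Mylpf* and *Myl2* then held 55.4%, 0.692% and 34.9% of the regulatory pool in the last 3, and *Mylk2* 54.3%, 14.5%, 38.7% and 9.83% of the kinase pair in all 4. Without *Myl12a* and *Myl12b*, *Mylpf* and *Myl2* held 24.9% ± 27.7, 96.6% ± 1.49, 18.5% ± 4.92 and 96.5% ± 0.30 of the regulatory pool (SD, n = 3). The WT_0d libraries spread too widely for an order of the cell types on 0d.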

Other observations

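Markers of smooth muscle, the tissue in which *Myl9* is abundant, moved in both directions between days. *Cnn1*, the calponin of smooth muscle, fell by 1.94 on the log2 scale from 0d to 5d in WT cells (limma adjusted p = 0.0107) and by 2.10 in PPARγ/+ cells (adjusted p = 6.05e-04), at levels below 1 FPKM. *Lmod1*, a leiomodin, rose by 1.26 in WT cells (adjusted p = 0.00473) and by 2.07 in PPARγ/+ cells (adjusted p = 7.75e-04). *Acta2*, an actin that early myotubes also make, rose by 1.22 in WT cells (adjusted p = 0.00149) and was 0.75 higher in PPARγ/+ cells, under the 2-fold change required. *Smtn*, another marker of the list, was 0.93 higher in WT cells (SE 0.25, limma adjusted p = 0.0290), also under that change. In PPARγ/+ cells *Smtn* was at 19.9, 18.3 and 22.6 FPKM on 0d and at 33.4, 32.9 and 34.1 FPKM on 5d. *Tagln* fell by 1.68 in PPARγ/+ cells (adjusted p = 0.00436), and in WT cells its log2 difference was -0.38 (SE 0.50, adjusted p = 0.590). It was at 25.8, 34.0 and 26.1 FPKM in WT_0d and at 50.6, 16.6 and 12.2 FPKM in WT_5d. There replicate 1 stood above the others, as it did for *Myl9*.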
